A study of Homo sapiens with 9 samples.

Results

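The direct comparison of 2 CIC fusion oncoproteins in 293T cells is described here: 3 libraries of cells expressing HA-CIC(ex20)::NUTM1(ex6) (CIC::NUTM1 below) against 3 libraries expressing HA-CIC::DUX4 (CIC::DUX4), 6 of the series' 9 libraries. The libraries were chosen by the construct named in their labels, and every gene that passed a filter on low counts was compared, 17576 of 62700. The other 3 libraries, transfected with plasmid carrying no insert (empty vector), serve as a reference level. The 293T line derives from human embryonic kidney, carries viral oncogenes and is widely used because it is easy to transfect. Per the labels, each condition used 300000 cells that were reverse transfected with Fugene 6, replicates were made on separate days, and polyA RNA was taken about 48 h later for strand-directional libraries. Both fusions carried an HA epitope tag and were expressed transiently from a plasmid in cells that are not sarcoma cells, so the comparison is between overexpressed proteins in a single line. The transcripts of the fused genes were not analysed here, and how much of each fusion the cells made is therefore not known. The group labels, which set every direction given here, were not checked against the constructs.

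CIC (capicua) is a repressor that sits at short DNA octamers near genes of the receptor tyrosine kinase, RAS and ERK response, among them ETV4 and ETV5, and holds them low until ERK signalling releases it. In CIC-rearranged sarcoma the CIC part keeps its DNA binding and gains a partner sequence that turns the repressor into an activator. The DUX4 portion comes from a germline homeobox factor and the NUTM1 portion from a testis protein also found in NUT carcinoma. Both partners are known to recruit the acetyltransferase p300. The comparison asks which genes and functions differ between cells expressing the whole constructs. The labels name the joined exons for CIC::NUTM1 only. Effects of the partner, of the CIC part kept and of the amount of fusion therefore cannot be told apart.

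Library totals were 16970771 to 26465985 counts in the 6 fusion libraries. Libraries of 1 group differed by more than counting noise, with a chi-square statistic per degree of freedom of 6.101 to 10.62. Levels are CPM, the reads of a gene relative to its library's total, scaled by TMM (scaled CPM), log2 differences are CIC::NUTM1 minus CIC::DUX4 with the standard error (SE) of the fit, and a gene is called when its edgeR quasi-likelihood adjusted p (Benjamini-Hochberg over all tested genes) is under 0.05. A gene called with the higher level under a fusion is said to be called for that fusion. In a principal component analysis of the 6 libraries, the first component held 35.4% of the variance, with CIC::NUTM1 at -40.44 to -14.85 and CIC::DUX4 at 21.51 to 36.68. CIC::NUTM1 replicate 2 lay nearest to the other group. The 15 markers of the cell line and of neural and renal lineage summed to 1615 to 1706 CPM with CIC::NUTM1, 1466 to 1496 with CIC::DUX4 and 1552 to 1733 in empty vector. The 22 markers of blood, vessel, liver and other cell types summed to 12.63 to 27.71 CPM over the 9 libraries, and HBB and UMOD were at 0 in all.

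The fusions differed in 1162 genes, 6.61% of those tested. CIC::NUTM1 was the higher in 874 (4.97%) and CIC::DUX4 in 288 (1.64%). Differences of at least 2-fold were found for 161 genes called for CIC::NUTM1 (0.916%) and 79 called for CIC::DUX4 (0.449%). The median size of a called difference was 0.50 on the log2 scale in both directions, and the median over all tested genes was -0.01. In bulk RNA, more transfected cells and more RNA per transfected cell cannot be told apart. Of the called genes, 75.2% were higher with CIC::NUTM1, and this share was 61.4% (695 and 437 genes) when libraries were scaled by their totals alone. Without CIC::NUTM1 replicate 3 the counts were 516 and 174, without CIC::DUX4 replicate 1 they were 710 and 156, and without CIC::DUX4 replicate 2 they were 609 and 181. CIC::NUTM1 replicate 2 had the lowest level of its group in 136 of the 161 genes, and CIC::DUX4 replicate 1 the highest in 64 of the 79. Without CIC::DUX4 replicate 1 the 79 became 38.

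**Figure D1:**
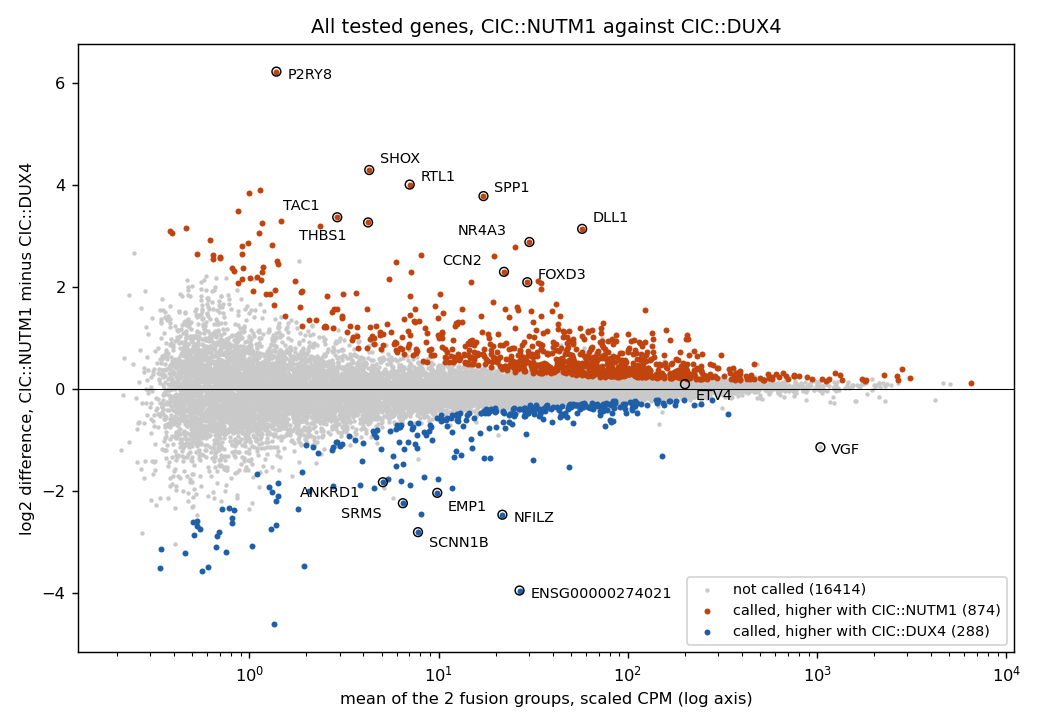
Each point is 1 of 17576 tested genes, with the mean of the 2 fusion groups in scaled CPM on the x axis (log scale) and the fitted log2 difference on the y axis. Called genes are coloured by direction (874 called for CIC::NUTM1, 288 for CIC::DUX4), and ETV4 and VGF are marked as CIC target genes that were not called.

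The empty vector libraries show what kind of difference this was. Of the 874 genes higher with CIC::NUTM1, empty vector lay below both fusions for 493 (56.4%), between them for 374 (42.8%) and above both for 7. CIC::NUTM1 raised 715 of the 874 above empty vector. Both fusions raised 166, and for 549 the rise was called with CIC::NUTM1 and not with CIC::DUX4, which in 9 of these was called below empty vector. Among the 288 genes higher with CIC::DUX4, empty vector lay below both for 118 (41%) and between them for 150 (52.1%), and 147 were raised by CIC::DUX4, 57 of them by both fusions. In 52 of the 288 the CIC::NUTM1 level was called below empty vector. At 2-fold or more, empty vector lay below both fusions for 73.3% of the genes higher with CIC::NUTM1 and 72.2% of those higher with CIC::DUX4. Against empty vector, CIC::NUTM1 raised 11.5% of tested genes and lowered 3.83%, CIC::DUX4 raised 6.96% and lowered 1.27%, and both of those comparisons share the empty vector libraries.

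**Figure D2:**
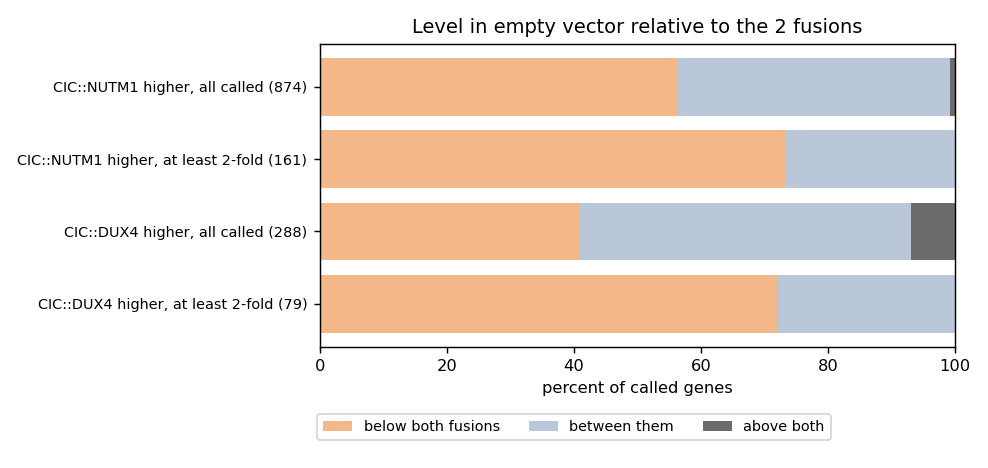
Bars give, for called genes in each direction and for those of at least 2-fold, the percent whose empty vector mean lay below both fusions, between them or above both. Below both is the most common position except among all 288 genes higher with CIC::DUX4, where 52.1% lay between.

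The sets also differed in kind. Protein-coding genes made up 97% of the genes higher with CIC::NUTM1, 87.1% of those higher with CIC::DUX4 and 81.2% of all tested genes with an annotation. Long noncoding RNAs made up 2.31%, 10.8% and 13.8% in the same order. The longest annotated transcript had a median of 4778 nt and 46% GC in the first set, 3325 nt and 53.3% GC in the second, and 3271 nt and 48.8% GC over all tested genes. These are descriptions of gene sets with different levels, and with offsets for GC content and length the calls became 1030 and 455.

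Developmental transcription factors were often higher with CIC::NUTM1. Of 123 tested genes in 3 lists (homeodomain factors outside the HOX clusters, the HOX clusters, and T-box, GATA, SOX and FOX factors), 49 were called for CIC::NUTM1 and 1 for CIC::DUX4. That 1 was PAX8, a renal and thyroid factor, named after its values were seen, which was at 1.72, 1.05 and 0.764 CPM with CIC::DUX4 and 0.3, 0.0383 and 0.104 under CIC::NUTM1, without a count in empty vector (log2 difference -3.10 ± 0.76, edgeR adjusted p = 0.0131). It was not called without CIC::NUTM1 replicate 2 or 3 or CIC::DUX4 replicate 1 or 2, where the differences were -2.56 (edgeR adjusted p = 0.0761) or -2.95 (edgeR adjusted p = 0.0861) or -2.70 (edgeR adjusted p = 0.117) or -3.16 (edgeR adjusted p = 0.0536). The shares higher with CIC::NUTM1 were 41.5% (22 of 53), 35.1% (13 of 37) and 42.4% (14 of 33), where 4.97% of all tested genes were. Members of all lists in this report were chosen with earlier results of these data known. Such shares therefore describe the lists as chosen, and no list was tested. Median log2 differences of the 3 lists were 0.30, 0.30 and 0.33. In 41 of the 49, CIC::NUTM1 was called above empty vector. CIC::DUX4 was not called against empty vector for 37 of the 49, was called above it for 4 and below it for 8. Members higher with CIC::NUTM1 numbered 16 to 24, 12 to 16 and 12 to 16 under all settings tried. Of the 15 markers of the cell line and of neural and renal lineage, some of which are in these lists, 6 were called for CIC::NUTM1 and 2 for CIC::DUX4, and their part in these differences was not tested.

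**Figure D3:**
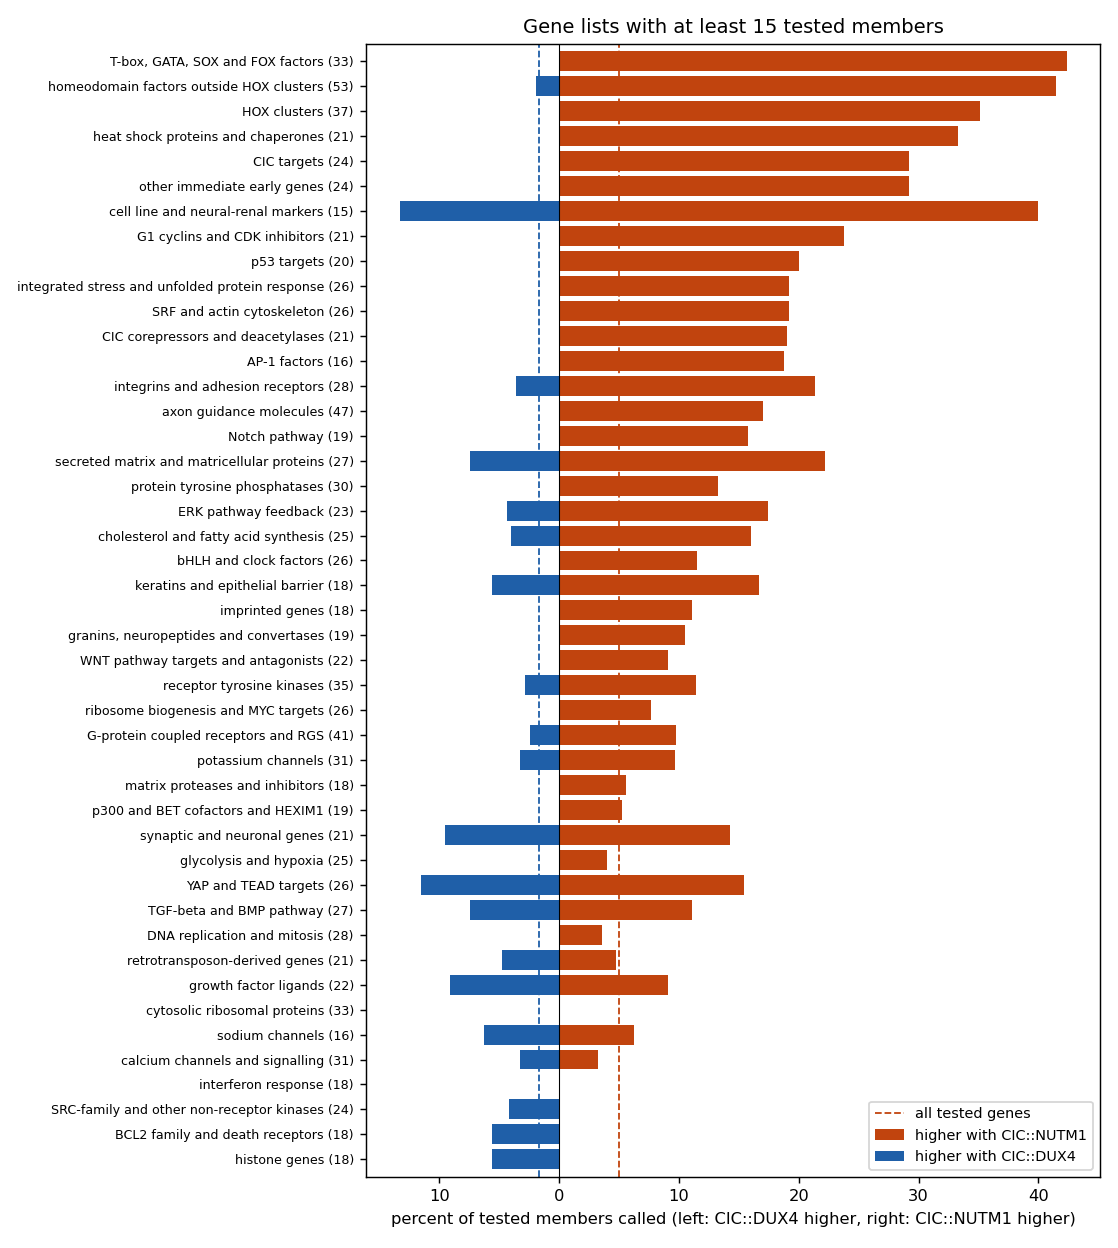
Bars give the percent of tested members called for CIC::NUTM1 (right) and for CIC::DUX4 (left) for each gene list with at least 15 tested members, whose number is in brackets, apart from 1 list that is not shown. Dashed lines mark the shares over all tested genes, 4.97% and 1.64%, and the 3 lists of developmental factors reach 35.1% to 42.4% on the right. All lists were chosen with earlier results of these data known.

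SHOX, a short-stature homeobox factor of the limb skeleton in the pseudoautosomal region (chrX:624344-659411 in GENCODE 29 on GRCh38, as for all gene positions here), had the largest called difference among genes averaging 100 counts or more in the higher group. It measured 11.5, 4.74 and 8.34 CPM with CIC::NUTM1, 0.381, 0.383 and 0.47 with CIC::DUX4 and 0.114, 0.0293 and 0 in empty vector. The log2 difference was 4.30 ± 0.40 (SE, edgeR adjusted p = 5.83e-08). Every CIC::NUTM1 library lay well above every other library. Its relative SHOX2 (chr3:158095954-158106503) was already expressed in empty vector at 8.47, 8.87 and 8.94 CPM, and measured 8.77, 8.34 and 10 with CIC::DUX4 and 29.7, 19.5 and 24.7 under CIC::NUTM1 (log2 difference 1.44 ± 0.15, edgeR adjusted p = 3.49e-07). For SHOX2 the CIC::DUX4 and empty vector libraries overlapped.

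The same arrangement, with CIC::DUX4 near the empty vector level and CIC::NUTM1 above it, was seen for FOXD3 and TFAP2A. FOXD3, a neural crest specifier, measured 61.6, 34.8 and 46.6 CPM with CIC::NUTM1, 11, 10.1 and 12.2 with CIC::DUX4 and 10.9, 12 and 12.3 in empty vector (log2 difference 2.10 ± 0.16, edgeR adjusted p = 3.15e-08). TFAP2A, also of the neural crest and surface ectoderm, measured 215, 148 and 187, 60.1, 66.8 and 61.5 and 67.2, 78.8 and 68.1 CPM (log2 difference 1.54 ± 0.11, edgeR adjusted p = 9.72e-08). It belonged to none of the lists and was chosen after its values were seen. In both genes the 3 CIC::NUTM1 libraries lay above the other 6.

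ISL1, a LIM homeodomain factor of motor neurons, and DLX1, of forebrain interneurons, had log2 differences of 1.10 ± 0.10 and 1.03 ± 0.10 (edgeR adjusted p = 5.24e-08 and 9.22e-08). SOX2, the neural progenitor and pluripotency factor, measured 131, 82.8 and 102 CPM with CIC::NUTM1, 49.1, 42.3 and 35.6 with CIC::DUX4 and 33, 29 and 36.1 in empty vector (log2 difference 1.30 ± 0.17, edgeR adjusted p = 0.000558). SOX21, a SOX factor that counteracts SOX2 class activators in neural progenitors, differed by 1.02 ± 0.11 (edgeR adjusted p = 2.99e-07). Of the other called members, MEIS2, EN2, NKX6-1 and GATA6 differed by 0.68, 0.51, 0.68 and 0.54 on the log2 scale. These 4 genes are among the 49 members called for CIC::NUTM1, so their shared side follows from that choice.

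For HOXA11 and TBX3, CIC::DUX4 lay below empty vector as well as CIC::NUTM1 above it. HOXA11, a distal limb and uterine HOX gene (chr7:27181510-27185223), measured 105, 88.9 and 102 CPM with CIC::NUTM1, 59.1, 60.2 and 63.1 in empty vector and 43.8, 48.9 and 44.5 with CIC::DUX4. The log2 difference between fusions was 1.11 ± 0.08 (edgeR adjusted p = 2.07e-09), made up of 0.70 for CIC::NUTM1 and -0.41 for CIC::DUX4 against empty vector, both called. The 3 groups did not overlap. TBX3, a T-box repressor of limb and mammary development, measured 166, 130.4 and 155, 91.3, 104 and 94.6 and 70.3, 84.6 and 83.4 CPM in the same order (log2 difference between fusions 0.92 ± 0.09, edgeR adjusted p = 1.71e-07). HOXD13 measured 282, 241 and 253 CPM with CIC::NUTM1, 188, 190.0 and 195 in empty vector and 184, 180.4 and 184 with CIC::DUX4 (log2 difference between fusions 0.50 ± 0.06, edgeR adjusted p = 5.5e-06), and HOXB8 measured 53.3, 41.9 and 40.8, 30.1, 31.1 and 29.8 and 23.7, 25 and 26.2 CPM (0.86 ± 0.10, edgeR adjusted p = 3.64e-06). CIC::DUX4 was not called against empty vector for HOXD13 or HOXB8 (-0.06 and -0.28, edgeR adjusted p = 0.655 and 0.112). No member of the HOX clusters was called higher with CIC::DUX4, and 35 of the 37 tested had a log2 difference above 0.

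The Notch ligands DLL1 and JAG1 were higher with CIC::NUTM1, and the ligands DLL3, DLL4 and JAG2 were not called. In the Notch list (19 tested), 3 genes (15.8%) were called for CIC::NUTM1 and none for CIC::DUX4, in every setting tried. Over all tested genes the shares were 4.97% and 1.64%. The list's median was 0.04, and members that were not called differed by -0.27 to 0.52. DLL1, a transmembrane ligand that activates Notch receptors on neighbouring cells (chr6:170282206-170306565), measured 131, 75.3 and 103 CPM with CIC::NUTM1, 11.8, 13.1 and 9.76 with CIC::DUX4 and 11.4, 13.7 and 10.2 in empty vector. The log2 difference was 3.14 ± 0.21 (edgeR adjusted p = 3.65e-06), while CIC::DUX4 against empty vector gave -0.03 (edgeR adjusted p = 0.968). The CIC::DUX4 libraries were spread among those of empty vector, and CIC::NUTM1 stood apart. JAG1, another ligand, measured 63, 47.9 and 66.1, 23.2, 18.8 and 18.8 and 12.4, 14.6 and 14.4 CPM in the order CIC::NUTM1, CIC::DUX4 and empty vector (log2 difference 1.53 ± 0.12, edgeR adjusted p = 6.28e-09). The receptor NOTCH1 differed by 0.45 ± 0.09 (edgeR adjusted p = 0.00258).

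**Figure D4:**
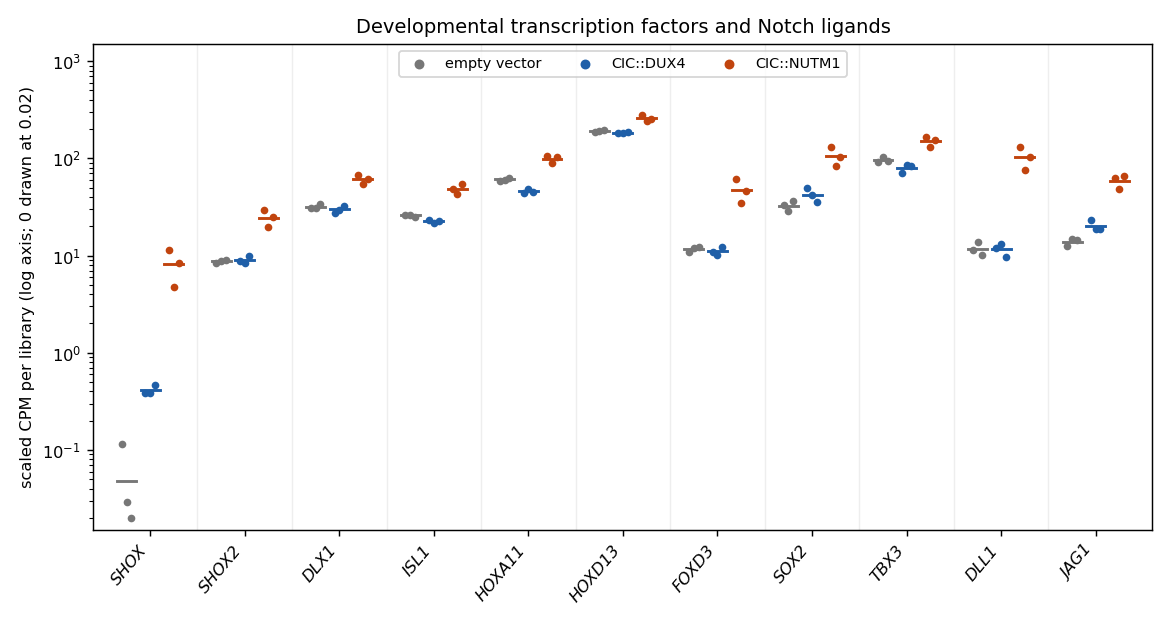
Points are single libraries in scaled CPM on a log axis (a level of 0 is drawn at 0.02) and bars are group means, for 9 developmental transcription factors and the Notch ligands DLL1 and JAG1. CIC::NUTM1 lies above CIC::DUX4 in every library of every gene, and CIC::DUX4 lies among or beside the empty vector libraries for SHOX2, DLX1, FOXD3 and DLL1.

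Of 21 tested G1 cyclins and CDK inhibitors, 5 (23.8%) were called for CIC::NUTM1 and none for CIC::DUX4 (median 0.01), where 4.97% and 1.64% of all tested genes were. Without CIC::DUX4 replicate 2, 3 were called for CIC::NUTM1. CDKN1B (p27), an inhibitor of cyclin E and CDK2, measured 112, 85.8 and 103 CPM with CIC::NUTM1, 59.2, 58.9 and 58.5 in empty vector and 41.9, 44.6 and 44.2 with CIC::DUX4. The difference between fusions was 1.20 ± 0.09 on the log2 scale (edgeR adjusted p = 1.87e-09), and CIC::DUX4 was called below empty vector by -0.44. CDKN2C (p18), an inhibitor of CDK4 and CDK6, measured 200.3, 155 and 183 CPM with CIC::NUTM1 and 87.5, 87.6 and 96.4 with CIC::DUX4 (log2 difference 0.98 ± 0.08, edgeR adjusted p = 9.74e-09). CDKN2B and CDKN2A differed by 0.84 ± 0.12 and 0.32 ± 0.08 (edgeR adjusted p = 8.17e-05 and 0.0111), and CDKN2A was not called without CIC::NUTM1 replicate 1 or CIC::DUX4 replicate 1 or 2 (0.22, 0.27 and 0.31). The fifth was the cyclin CCND1, which drives entry into the cell cycle, at 438, 303 and 407 CPM with CIC::NUTM1, 271, 222 and 229 with CIC::DUX4 and 97.4, 79.2 and 84.5 in empty vector (log2 difference 0.67 ± 0.14, edgeR adjusted p = 0.0251). Its call was lost without CIC::NUTM1 replicate 1 or 3 or CIC::DUX4 replicate 2 or 3 (0.56, 0.61, 0.61 and 0.63). The inhibitor CDKN1A (p21) did not pass the test (-0.04 ± 0.12, edgeR adjusted p = 0.924). In the list of DNA replication and mitosis genes, 1 of 28 tested was called and the median was 0.04.

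Immediate early genes are induced by signalling within minutes. Outside the AP-1 family, 7 of 24 tested (29.2%, against 4.97% of all tested genes) were called for CIC::NUTM1, none for CIC::DUX4 and 17 in neither direction (median 0.14), and 4 were higher without CIC::NUTM1 replicate 1. NR4A3, an orphan nuclear receptor, measured 65.9, 37.2 and 56.3 CPM with CIC::NUTM1, 6.94, 7.09 and 7.47 with CIC::DUX4 and 3.03, 3.54 and 4.21 in empty vector (log2 difference 2.89 ± 0.17, edgeR adjusted p = 1.58e-09). NR4A1, of the same family, measured 90.2, 65.9 and 73.8, 39.3, 34.3 and 38.1 and 23.3, 24.4 and 24.2 CPM (log2 difference 1.04 ± 0.10, edgeR adjusted p = 1.07e-07). For both receptors the order was CIC::NUTM1, then CIC::DUX4, then empty vector, with no overlap. The other 5 called genes did not share this order, as CIC::DUX4 was not called against empty vector for them. All 7 were called above empty vector with CIC::NUTM1. NR4A2, of the same family, was 1 of the 5 (log2 difference 1.07 ± 0.28, edgeR adjusted p = 0.0169). Its CIC::DUX4 difference from empty vector was -0.23, and its CIC::NUTM1 and empty vector libraries overlapped.

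In the AP-1 list, 3 of 16 tested (18.8%) were called for CIC::NUTM1 and none for CIC::DUX4, where 4.97% and 1.64% of all tested genes were. Without CIC::NUTM1 replicate 3, 5 were called for CIC::NUTM1. FOS, a dimer partner of JUN, measured 52.7, 23.2 and 41.8 CPM with CIC::NUTM1, 13.5, 12.5 and 12.2 with CIC::DUX4 and 4.23, 4.42 and 4.25 in empty vector (log2 difference 1.61 ± 0.23, edgeR adjusted p = 0.000858). FOSB and FOSL1 differed by 1.00 ± 0.16 and 0.89 ± 0.18 (edgeR adjusted p = 0.000191 and 0.00234). All 3 were called above empty vector with both fusions.

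Most of the listed CIC targets were raised by each fusion. Of 24 tested, 20 were raised above empty vector by CIC::NUTM1 and 19 by CIC::DUX4, where 11.5% and 6.96% of all tested genes were. This list too was chosen with earlier results of these data known and was not tested. In the direct comparison 7 (29.2%) were called for CIC::NUTM1 (median log2 difference 0.36), where 4.97% of all tested genes were. That number was 11 without CIC::NUTM1 replicate 2 or without CIC::DUX4 replicate 1. ETV4, an ETS factor and the standard CIC target, measured 255, 156 and 211 CPM with CIC::NUTM1 and 232, 165 and 182 with CIC::DUX4, against 0.401, 0.527 and 0.601 in empty vector. The difference between fusions was 0.10 ± 0.19 (edgeR adjusted p = 0.864). ETV5 gave 311, 198 and 305, 297, 214 and 231 and 1.14, 0.849 and 0.441 CPM and a difference between fusions of 0.13 ± 0.21 (edgeR adjusted p = 0.827). For both genes the libraries of the fusions overlapped, and both fusions lay far above empty vector.

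VGF, a secreted neuropeptide precursor, did not pass the test. It measured 1631, 1211 and 1449 CPM with CIC::DUX4, 901, 465 and 583 under CIC::NUTM1 and 1.49, 1.52 and 0.641 in empty vector (log2 difference -1.14 ± 0.27, edgeR adjusted p = 0.0624). The 3 CIC::DUX4 libraries lay above the 3 of CIC::NUTM1, as they did in the direction of higher CIC::DUX4 for 9.36% of tested genes, and without CIC::NUTM1 replicate 1 the difference was -1.45 (edgeR adjusted p = 0.0123). Among the targets that were called, HMGA2, an architectural chromatin protein, and BHLHE41, a circadian repressor, differed by 0.57 ± 0.06 and 1.08 ± 0.15 (edgeR adjusted p = 5.78e-07 and 1.53e-05). BHLHE41 was not raised by CIC::DUX4, whose log2 difference from empty vector was -0.29 (edgeR adjusted p = 0.288). The ERK inhibitor SPRY2 measured 127, 82.8 and 99.7 CPM with CIC::NUTM1, 64.1, 46.7 and 48 with CIC::DUX4 and 23.3, 20.6 and 21.2 in empty vector (log2 difference 0.95 ± 0.15, edgeR adjusted p = 0.0021).

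Feedback inhibitors of ERK gave 4 members (17.4%) called for CIC::NUTM1 and 1 (4.35%) for CIC::DUX4 of 23 tested (median 0.21). Over all tested genes the shares were 4.97% and 1.64%. Without CIC::NUTM1 replicate 2 or CIC::DUX4 replicate 1 the first number was 7 or 8. DUSP16, a phosphatase of JNK and p38, measured 148, 122 and 159 CPM with CIC::NUTM1 and 80.1, 66.6 and 73.2 with CIC::DUX4 (log2 difference 0.96 ± 0.09, edgeR adjusted p = 3.13e-07). SPRY3 was the member higher with CIC::DUX4, at 20.5, 20.6 and 17.5 CPM against 9.78, 8.49 and 11.7 with CIC::NUTM1 and 2.92, 3.13 and 2.48 in empty vector (log2 difference -0.97 ± 0.16, edgeR adjusted p = 0.000159). Sprouty genes therefore lay on both sides of the comparison.

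Secreted and matrix proteins were divided between the fusions, with the larger differences on the side of CIC::NUTM1. Of 27 tested members of the matrix list, 6 (22.2%) were called for CIC::NUTM1 and 2 (7.41%) for CIC::DUX4 (median 0.07), where 4.97% and 1.64% of all tested genes were. SPP1 (osteopontin), a phosphoprotein ligand of integrins, measured 37.8, 22.2 and 36.6 CPM with CIC::NUTM1, 2.78, 1.92 and 2.18 with CIC::DUX4 and 0.0572, 0.146 and 0.16 in empty vector (log2 difference 3.79 ± 0.21, edgeR adjusted p = 7.74e-11). THBS1 (thrombospondin), an inhibitor of angiogenesis that also activates latent TGF-beta, measured 8.1, 6.47 and 8.55, 1.18, 0.479 and 0.647 and 0.343, 0.146 and 0.2 CPM (log2 difference 3.27 ± 0.33, edgeR adjusted p = 2.1e-07). Both fusions raised both genes, CIC::NUTM1 by more.

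COL5A3, a fibrillar collagen chain, and ANGPT2, a vessel-destabilising ligand of TIE2, had the same order of groups. COL5A3 measured 38, 25.9 and 37.2 CPM with CIC::NUTM1, 7.71, 4.17 and 4.35 with CIC::DUX4 and 0.229, 0.117 and 0.12 in empty vector (log2 difference 2.61 ± 0.21, edgeR adjusted p = 3.64e-08). ANGPT2 measured 50.1, 31 and 51.7, 6.98, 5.75 and 6.29 and 0.572, 0.381 and 0.441 CPM (log2 difference 2.79 ± 0.17, edgeR adjusted p = 5.92e-10). The microfibril gene FBN1 differed by 0.95 ± 0.14 (edgeR adjusted p = 0.000239). COL12A1, a collagen that binds fibril surfaces, was higher with CIC::DUX4, at 21.2, 16.3 and 14.2 CPM against 8.94, 4.44 and 7.46 with CIC::NUTM1 and 1.2, 0.996 and 1.28 in empty vector (log2 difference -1.33 ± 0.21, edgeR adjusted p = 0.000158). The collagen receptor subunit ITGA11 was also higher with CIC::DUX4 (-1.50 ± 0.29, edgeR adjusted p = 0.00138), while ITGB1, the shared beta subunit, and the cadherin CDH2 were higher with CIC::NUTM1 (0.44 ± 0.07 and 0.51 ± 0.08, edgeR adjusted p = 5.35e-05 and 4.6e-05).

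Targets of the Hippo pathway effectors YAP and TEAD were called on both sides, and CCN2 and ANKRD1 had the largest called difference on each. CCN2 (CTGF), a matricellular growth factor (chr6:131948176-131951373), measured 51.8, 22.5 and 36.4 CPM with CIC::NUTM1, 8.28, 6.8 and 7.12 with CIC::DUX4 and 2.92, 2.87 and 3.41 in empty vector (log2 difference 2.30 ± 0.24, edgeR adjusted p = 3.6e-05). ANKRD1, a nuclear and sarcomeric ankyrin repeat protein (chr10:90912096-90921276), measured 8.85, 8.53 and 6.29 CPM with CIC::DUX4, 3.12, 1.84 and 1.81 under CIC::NUTM1 and 0.401, 0.469 and 0.321 in empty vector (log2 difference -1.83 ± 0.27, edgeR adjusted p = 4.95e-05). Each was raised above empty vector by both fusions. CCN1 (CYR61), a further matricellular target, measured 55.1, 32.1 and 46.3, 35.6, 32 and 32.1 and 12.2, 14.2 and 14.2 CPM in the order CIC::NUTM1, CIC::DUX4, empty vector, and the fusions overlapped (log2 difference 0.41 ± 0.14, edgeR adjusted p = 0.102). It was called without CIC::NUTM1 replicate 2 (0.61, edgeR adjusted p = 0.000793). Over the YAP and TEAD list, 4 of 26 tested (15.4%) were called for CIC::NUTM1 and 3 (11.5%) for CIC::DUX4, where 4.97% and 1.64% of all tested genes were. The second number was 1 without CIC::DUX4 replicate 1 or replicate 2, and the median was 0.04.

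Among 22 tested growth factor ligands, 2 (9.09%) were called for each fusion, where 4.97% and 1.64% of all tested genes were (median -0.05), and over the fits that left out 1 library these were 2 to 3 and 0 to 2. FGF1 measured 4.56, 3.56 and 3.99 CPM with CIC::NUTM1 and 1.07, 1.53 and 0.764 with CIC::DUX4, with 0 counts in empty vector (log2 difference 1.83 ± 0.37, edgeR adjusted p = 0.00233). PDGFA, the ligand of PDGF receptor alpha, measured 20.8, 9.68 and 13.2, 6.26, 4.22 and 3.41 and 2.52, 2.14 and 3.37 CPM in the order CIC::NUTM1, CIC::DUX4, empty vector (log2 difference 1.62 ± 0.27, edgeR adjusted p = 0.00063). Both ligand genes had their 3 CIC::NUTM1 libraries above all others. IGF1, a ligand of the insulin-like growth factor receptor, was on the other side, at 2.63, 2.11 and 1.59 CPM with CIC::DUX4, 0.66, 0.536 and 0.363 under CIC::NUTM1 and 0 in empty vector (log2 difference -2.02 ± 0.51, edgeR adjusted p = 0.0149). The call was lost without CIC::NUTM1 replicate 3 or CIC::DUX4 replicate 1 or 2 (-1.85, -1.83 and -2.03). FGF2 measured 16.2, 19 and 15.5, 10.6, 14.2 and 11.8 and 16.1, 17.7 and 14.7 CPM in that order (-0.46 ± 0.14, edgeR adjusted p = 0.0492), and its call was lost in 8 of the 9 fits that left out 1 library, all but that without CIC::NUTM1 replicate 2.

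Of 35 tested receptor tyrosine kinases, 4 (11.4%) were called for CIC::NUTM1 and 1 (2.86%) for CIC::DUX4, where 4.97% and 1.64% of all tested genes were. The first number was 2 without CIC::NUTM1 replicate 1 or CIC::DUX4 replicate 2. EPHA2, an ephrin receptor, measured 268, 160.4 and 233 CPM with CIC::NUTM1, 108, 93.8 and 93.4 with CIC::DUX4 and 27, 30.2 and 29.5 in empty vector (log2 difference 1.16 ± 0.17, edgeR adjusted p = 0.00347). In the TGF-beta and BMP list, 3 of 27 tested (11.1%) were called for CIC::NUTM1 and 2 (7.41%) for CIC::DUX4. The ligand BMP7 and the inhibitory SMAD7 differed by 0.96 ± 0.11 and 0.89 ± 0.11 (edgeR adjusted p = 5.88e-05 and 4.44e-06). WNT5A, a ligand of the non-canonical WNT pathway, measured 126, 84.7 and 117 CPM with CIC::NUTM1, 62.5, 54 and 49.2 with CIC::DUX4 and 33.2, 38.3 and 36.9 in empty vector (log2 difference 0.98 ± 0.13, edgeR adjusted p = 0.000154). Its 3 groups did not overlap.

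Promoters of genes that separate the fusions can be read against the CIC octamers TGAATGAA and TGAATGGA. RefSeq promoters (GRCh38.p14, the 250 bases before the start) were matched for 12205 of the tested genes, and 184 (1.51%) held an octamer on either strand. The share was 1.93% (13 of 672) for genes higher with CIC::NUTM1 and 2.86% (6 of 210) for genes higher with CIC::DUX4. At 2-fold or more it was 3.64% (4 of 110) and 4.35% (2 of 46). The AP-1 motif TGANTCA, which can share bases with an octamer, was found in 3.78% of all matched promoters, 3.12% of those higher with CIC::NUTM1 and 5.24% of those higher with CIC::DUX4. Of 191 named genes with a matched promoter, 7 held an octamer. ITGA6 (0.34, edgeR adjusted p = 0.0496) was called for CIC::NUTM1, a call lost in 7 of the 9 fits that left out 1 library and with a difference of 0.18 without CIC::NUTM1 replicate 3, and VGF (-1.14) and BCL2L1 (-0.30) were not called. The sites of the other 4 are shown because these had the largest differences of the 5 that were called, all for CIC::NUTM1, each on the strand of its gene, 5′ to 3′, with the octamer or its reverse complement in capitals.
CCN2 (chr6:131951406-131951473, minus strand, ending 64 bases before the start, TGAATGGA on the opposite strand): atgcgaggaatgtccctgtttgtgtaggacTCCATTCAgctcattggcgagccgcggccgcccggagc
EPHA2 (chr1:16156070-16156133, minus strand, ending 27 bases before the start): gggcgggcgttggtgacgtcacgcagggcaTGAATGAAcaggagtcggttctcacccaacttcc
WNT5A (chr3:55487488-55487555, minus strand, ending 212 bases before the start): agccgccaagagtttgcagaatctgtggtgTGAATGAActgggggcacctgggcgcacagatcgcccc
CLDN1 (chr3:190322654-190322696, minus strand, ending 238 bases before the start, overlapping a further site that ends 234 bases before it): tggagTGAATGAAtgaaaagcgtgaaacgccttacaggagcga
A match describes these letters in this window and says nothing on binding. The log2 differences of the 4 genes were 2.30, 1.16, 0.98 and 1.40, and all 4 were called above empty vector with both fusions.

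Of 47 tested axon guidance genes, 8 (17%) were called for CIC::NUTM1 and none for CIC::DUX4, where 4.97% and 1.64% of all tested genes were. The second share gives few calls in a list of this size. With scaling by library totals, with DESeq2 or with offsets for GC content and length, 1 was called for CIC::DUX4. The median was -0.05, and 21 of the 47 had a log2 difference above 0. NTN1 (netrin), a secreted guidance cue, SEMA3E, a semaphorin, and the semaphorin and VEGF co-receptor NRP1 differed by 0.77 ± 0.09, 0.89 ± 0.17 and 0.82 ± 0.14 (edgeR adjusted p = 8.66e-07, 0.00131 and 0.00142). The list of synaptic and neuronal genes had 3 (14.3%) called for CIC::NUTM1 and 2 (9.52%) for CIC::DUX4 of 21 tested (median -0.05). These numbers were 0 to 3 and 0 to 1 over the fits that left out 1 library, with 0 for CIC::NUTM1 without its replicate 1. TAC1, RGS4 and ADGRB1 are named for the size of their difference. TAC1, which encodes substance P, measured 6.6, 4.4 and 4.92 CPM with CIC::NUTM1, 0.458, 0.383 and 0.706 with CIC::DUX4 and 0.744, 0.469 and 0.882 in empty vector (log2 difference 3.37 ± 0.37, edgeR adjusted p = 8.66e-07), and RGS4, a brake on G-protein signalling, differed by 2.64 ± 0.24 (edgeR adjusted p = 4.21e-08). The brain adhesion receptor ADGRB1 measured 70.4, 45.3 and 48.4, 12.5, 11.4 and 13.8 and 12.5, 10.5 and 11.7 CPM in the same order of groups (log2 difference 2.12 ± 0.14, edgeR adjusted p = 2.36e-09). For TAC1 and ADGRB1, CIC::DUX4 was not called against empty vector.

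Some genes were close to silent in empty vector. RTL1, an imprinted retrotransposon-derived gene (chr14:100879753-100903722), had 0 counts in empty vector and measured 16.9, 10.4 and 12.4 CPM with CIC::NUTM1 and 0.915, 0.527 and 1 with CIC::DUX4 (log2 difference 4.01 ± 0.29, edgeR adjusted p = 5.03e-09). It overlaps 10 annotated genes on the opposite strand, and whether the counting used strand is not given in the sources used here. PAX5, the B cell and midbrain paired box factor, measured 12.4, 6.81 and 11, 1.56, 2.11 and 1.65 and 0.629, 0.176 and 0.561 CPM in the order CIC::NUTM1, CIC::DUX4, empty vector (log2 difference 2.50 ± 0.30, edgeR adjusted p = 3.09e-06). P2RY8, a G-protein coupled receptor chosen after its values were seen, had at most 1 count in a CIC::DUX4 library and 0 in empty vector, and measured 3.36, 2.3 and 2.59 CPM with CIC::NUTM1. That is at least 19-fold higher than 3 counts per CIC::DUX4 library would give (edgeR adjusted p = 4.44e-06).

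Epithelial genes were split between the fusions. The genes of the gamma and beta subunits of the epithelial sodium channel, which are neighbours on chromosome 16, went opposite ways. No other member of the sodium channel list (16 tested) was called. The share called in either direction over all tested genes, 6.61%, gives few calls in a list of this size. SCNN1G (gamma subunit, chr16:23182715-23216883) measured 12.4, 5.93 and 8.44 CPM with CIC::NUTM1, 2.29, 1.2 and 2.41 with CIC::DUX4 and 0 in empty vector (log2 difference 2.17 ± 0.31, edgeR adjusted p = 6.98e-05). SCNN1B (beta subunit, chr16:23278231-23381299) measured 17.6, 10.2 and 12.9 CPM with CIC::DUX4, 2.4, 1.22 and 2.33 under CIC::NUTM1 and at most 1 count in an empty vector library (log2 difference -2.81 ± 0.27, edgeR adjusted p = 9.41e-08). Both subunits were therefore raised by both fusions, and the preferred fusion differed between them.

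The intestinal keratin KRT20 measured 43.9, 29.5 and 43.9 CPM with CIC::NUTM1, 17.4, 11.2 and 10.8 with CIC::DUX4 and 0 in empty vector (log2 difference 1.56 ± 0.20, edgeR adjusted p = 0.000286). The simple epithelial keratin KRT8 was on the other side, at 36.9, 19.3 and 18.6 CPM with CIC::DUX4, 10.9, 11.7 and 6.94 under CIC::NUTM1 and 9.5, 9.25 and 11.6 in empty vector (log2 difference -1.34 ± 0.28, edgeR adjusted p = 0.014), and without CIC::NUTM1 replicate 1 it was -1.42 (edgeR adjusted p = 0.0666). The tight junction gene CLDN1, whose octamer site is given above, was higher with CIC::NUTM1 (1.40 ± 0.20, edgeR adjusted p = 4e-05). Of 18 tested keratin and barrier genes 3 (16.7%) were called for CIC::NUTM1 and 1 (5.56%) for CIC::DUX4, so most did not pass the test. Over all tested genes the shares were 4.97% and 1.64%.

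A row of 3 gel-forming mucin genes on chromosome 11, chosen after their values were seen, was higher with CIC::NUTM1. MUC2 (chr11:1074875-1110511) measured 2.76, 1.45 and 2.07 CPM with CIC::NUTM1 and 0.0381, 0.287 and 0.353 with CIC::DUX4 (log2 difference 3.26 ± 0.64, edgeR adjusted p = 0.00162). MUC5AC measured 25.6, 15.3 and 29.1 and 13.4, 9.58 and 8.65 CPM (log2 difference 1.13 ± 0.24, edgeR adjusted p = 0.00743), and without CIC::DUX4 replicate 2 the difference was 1.06 (edgeR adjusted p = 0.0541). MUC6 differed by 1.43 ± 0.34 (edgeR adjusted p = 0.00892), and without CIC::NUTM1 replicate 3 or CIC::DUX4 replicate 2 it was 1.14 (edgeR adjusted p = 0.125) or 1.32 (edgeR adjusted p = 0.0551). In empty vector MUC6 had 0 counts, MUC2 measured 0, 0.0293 and 0 CPM and MUC5AC measured 0.114, 0 and 0 CPM.

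Of the 51 lists examined, none had more than 3 members called higher with CIC::DUX4. Over all tested genes 1.64% were, a share that gives few calls in lists of these sizes. Several of the genes with the largest differences in this direction were at or near 0 in empty vector. ENSG00000274021, an antisense transcript (chr12:89351015-89353271), measured 63.6, 41.5 and 45.2 CPM with CIC::DUX4, 4.5, 1.72 and 3.89 under CIC::NUTM1 and 0 in empty vector (log2 difference -3.95 ± 0.33, edgeR adjusted p = 0.000322). It lies on the strand opposite DUSP6 (chr12:89347232-89353271), an ERK phosphatase and CIC target, so reads of the pair may not be separable. DUSP6 measured 36.4, 27.3 and 29.4 CPM with CIC::DUX4, 72, 37.8 and 62.1 under CIC::NUTM1 and 0.343, 1.29 and 0.321 in empty vector, which is the other direction, and did not pass the test (log2 difference 0.88 ± 0.30, edgeR adjusted p = 0.177) except without CIC::NUTM1 replicate 2 (1.11, edgeR adjusted p = 0.00806). NFILZ, related to the NFIL3 leucine zipper factors, measured 47.1, 30.9 and 32.1 CPM with CIC::DUX4 and 8.7, 6.7 and 4.71 under CIC::NUTM1, again with 0 in empty vector (log2 difference -2.46 ± 0.21, edgeR adjusted p = 3.01e-06). ENSG00000274021 and NFILZ were several-fold above CIC::NUTM1 in every CIC::DUX4 library.

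SRMS, a non-receptor tyrosine kinase related to SRC, measured 11.7, 9.25 and 11.1 CPM with CIC::DUX4, 3.06, 2.07 and 1.71 under CIC::NUTM1 and 0 in empty vector (log2 difference -2.24 ± 0.25, edgeR adjusted p = 2.35e-06). It was the only member of the list of non-receptor kinases to be called (24 tested). Over all tested genes 6.61% were called in either direction, which gives few calls in a list of this size. MSLNL, a mesothelin-like gene, and PARVG, a parvin that links integrins to actin, differed by -2.45 ± 0.22 and -1.89 ± 0.41 (edgeR adjusted p = 5.02e-08 and 0.00521). S100A16, a calcium-binding protein, measured 22.7, 14.2 and 18.7 CPM with CIC::DUX4, 5.46, 4.25 and 4.97 under CIC::NUTM1 and 0.114, 0.0293 and 0.281 in empty vector (log2 difference -1.93 ± 0.22, edgeR adjusted p = 1.12e-06). All 4 genes were raised above empty vector by both fusions.

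Some of the genes preferring CIC::DUX4 had a measurable level in empty vector. EMP1, an epithelial membrane protein, measured 17.6, 15 and 14.8 CPM with CIC::DUX4, 3.54, 3.83 and 4.2 under CIC::NUTM1 and 1.66, 1.9 and 0.321 in empty vector (log2 difference -2.04 ± 0.30, edgeR adjusted p = 0.000398). LGALS1 (galectin), a secreted lectin, measured 6.94, 7.81 and 10.2, 3.36, 1.65 and 2.43 and 1.89, 2.17 and 1.48 CPM in that order (log2 difference -1.76 ± 0.27, edgeR adjusted p = 6.99e-05), and CIC::NUTM1 was not called against empty vector. MYEOV, an oncogene candidate beside CCND1, and SH3RF2, a scaffold of the JNK pathway, differed by -1.88 ± 0.27 and -1.77 ± 0.29 (edgeR adjusted p = 3.12e-05 and 0.000799). The noncoding genes CRIM1-DT, ARHGEF26-AS1 and ENSG00000250385 completed the 15 with the largest differences at -1.94, -1.81 and -1.73. Among the lists, the histone gene H2BC11 and the fatty acid elongase ELOVL6 were called in this direction (-1.32 ± 0.23 and -0.47 ± 0.09, edgeR adjusted p = 0.000472 and 0.000904), the former with copies similar enough for reads to be shared.

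Most neighbouring called genes shared a direction, and some did not. Among called genes adjacent in the list of tested genes, 82 pairs were both higher with CIC::NUTM1, 11 both higher with CIC::DUX4 and 24 were split. Of all called genes, 75.2% were higher with CIC::NUTM1. Whether neighbours share a direction more often than other called genes was not tested. The ETS factors ETS1 and FLI1 are neighbours on chromosome 11. ETS1 measured 38, 32.5 and 35.6 CPM with CIC::NUTM1, 17, 13.9 and 14.9 with CIC::DUX4 and 10.6, 9.87 and 11.5 in empty vector (log2 difference 1.21 ± 0.12, edgeR adjusted p = 1.41e-07), and FLI1 measured 14.6, 15.3 and 14.9, 29.4, 21.9 and 23.6 and 7.72, 10.2 and 9.78 CPM (log2 difference -0.74 ± 0.14, edgeR adjusted p = 0.000786). P2RY8 and ASMTL, adjacent in the pseudoautosomal region (chrX:1403139-1453762 for ASMTL), were also split, and ASMTL measured 257, 186 and 205 CPM with CIC::DUX4, 108, 66.2 and 89.2 under CIC::NUTM1 and 34.8, 30 and 37.8 in empty vector (log2 difference -1.31 ± 0.20, edgeR adjusted p = 0.00767). These pairs were chosen after their values were seen.

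**Figure D5:**
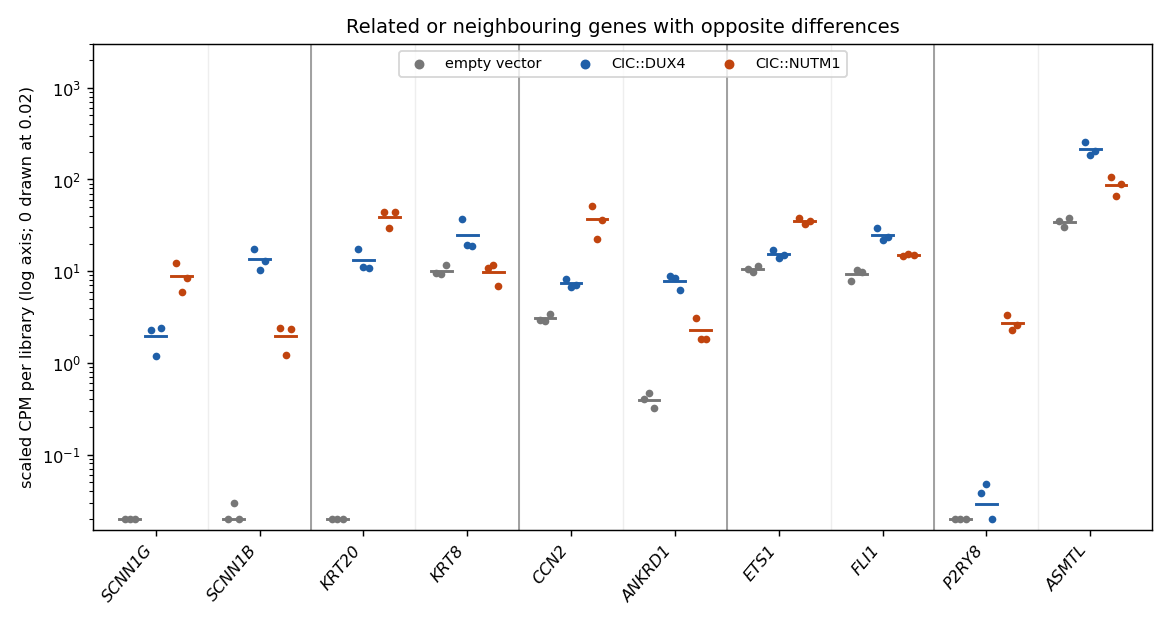
Points are single libraries in scaled CPM on a log axis (a level of 0 is drawn at 0.02) and bars are group means, for 5 pairs of related or adjacent genes. The first gene of the pairs SCNN1G and SCNN1B, KRT20 and KRT8, CCN2 and ANKRD1, ETS1 and FLI1, and P2RY8 and ASMTL is higher with CIC::NUTM1, and the second is higher with CIC::DUX4.

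Some lists had few or no called members, where 6.61% of all tested genes were called in either direction, a share that gives few calls in lists of this size. No cytosolic ribosomal protein gene (33 tested, median 0.03) and no interferon response gene (18 tested, median 0.05) was called, with 3 and 1 below an unadjusted p of 0.05. None of the 13 mitochondrially encoded transcripts was called, although all 13 were lower with CIC::NUTM1 (median -0.22), and their sum was 11850 to 17280 CPM with CIC::NUTM1 and 16640 to 18880 with CIC::DUX4, which overlap. The p300 and BET cofactors gave 1 called gene of 19 (5.26%, median 0.06), near the 4.97% of all tested genes called for CIC::NUTM1. Of 25 full-length DUX4 targets, genes such as ZSCAN4 that the whole DUX4 homeobox protein activates, 4 passed the filter and none was called.

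Heat shock proteins and chaperones were called in 7 of 21 tested (33.3%), all higher with CIC::NUTM1, where 4.97% of all tested genes were. The called differences were no more than 0.36 on the log2 scale, and 4 were called without CIC::DUX4 replicate 2. Of the 7, CIC::NUTM1 was called above empty vector in 3. Against empty vector, CIC::DUX4 was called below in 1 of the 7 and not called in 6. HSP90AA1, at 2814, 2819 and 2967 CPM with CIC::NUTM1 and 2457, 2388 and 2336 with CIC::DUX4, differed by 0.26 ± 0.04 (edgeR adjusted p = 0.000354).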

How the data were processed

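PolyA RNA from 9 libraries of 293T cells was sequenced, and the 6 fusion libraries are compared here. Raw counts by Ensembl gene ID and a table of log2 CPM were deposited by the authors. Per the submitters' processing notes, STAR 2.7.10b, R 4.2.2, edgeR 3.40.2 and GRCh38 were used. The annotation, and whether strand was used to count reads, is not given in the sources used here. The deposited log2 CPM values equalled TMM-scaled values with a prior count of 2 for the 11511 matched genes with over 100 counts.

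From the counts, edgeR 4.0.16 (R 4.3.3) kept 17576 genes by filterByExpr, scaled by TMM and fitted group means to all 9 libraries by robust quasi-likelihood, so that empty vector shared the estimate of spread (biological coefficient of variation 10.1%). The contrast was CIC::NUTM1 minus CIC::DUX4 with Benjamini-Hochberg adjustment and a threshold of 0.05. The SE is the log2 difference divided by the square root of F. The script was tested on simulated data. Floors of 3 counts cover counting error only, and fold bounds use them. Positions and gene types came from GENCODE 29 and promoters from RefSeq (GRCh38.p14).

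Named genes were the 15 with the largest difference in each direction among called genes averaging 100 counts or more in the higher group with no overlap between the fusions, and members of 51 lists that were called (at most 8) or listed first. Some genes that this rule names are not reported here. The comparison and the lists (1399 genes, 1169 tested) were chosen with earlier results of these data known, and no list was tested. Alternatives were other scalings, filters, DESeq2 1.42.0, limma-trend (limma 3.58.1), only the 6 fusion libraries, the replicate number as a block, and each library left out. Offsets for GC content and length were added after seeing the data. Replicates were transfected on separate days per the labels, and the labels do not say that equal numbers share a day. Figures were drawn with matplotlib 3.10.9.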

Additional observations from a re-analysis of the deposited data

How the results depend on the processing

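The fusion libraries are limited to 3 per group and to the depths given, so differences of low-count genes rest on few reads. Genes higher with CIC::DUX4 numbered 437 with scaling by library totals and 455 with offsets for GC content and length, against 288. Genes at least 2-fold higher with CIC::NUTM1 numbered 98 when every library needed 10 counts, against 161. Genes at least 2-fold higher with CIC::DUX4 numbered 31 under the same filter and 130 with no filter, against 79. The filters change the set of genes tested (14571 and 34765). The cause of the other changes was not tested.

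Leaving out each library in turn gave 516 to 940 genes higher with CIC::NUTM1, 156 to 324 higher with CIC::DUX4, 111 to 213 at least 2-fold higher with CIC::NUTM1 and 38 to 82 at least 2-fold higher with CIC::DUX4. DESeq2 called 915 and 393 genes, limma-trend on the deposited log2 CPM 870 and 270, and the fit of only the 6 fusion libraries 718 and 254.

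With the replicate number as a block the counts were 894 and 307, and 160 and 83 at 2-fold or more. Deviations from the group means of same-numbered CIC::NUTM1 and CIC::DUX4 libraries correlated at 0.0637, 0.236 and -0.161 over 11731 genes, so the numbers were not taken to pair the libraries, and not every library correlated best with its own number.

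Over 130 genes that the text gives values for or that were chosen by the size of their difference, 2365 of 2436 refits kept direction and side of the threshold, 54 lost the call, 12 gained it and 5 changed sign. The difference of ETV4 ranged from -0.077 to 0.27 over the fits that left out 1 library, and changed sign without CIC::NUTM1 replicate 1 and without CIC::DUX4 replicate 2 (-0.01), with edgeR adjusted p of 0.88 and 0.997. That of CDKN1A ranged from -0.12 to 0.068 and changed sign without CIC::NUTM1 replicate 3, CIC::DUX4 replicate 1 or CIC::DUX4 replicate 2 (edgeR adjusted p = 0.883, 0.991 and 0.984). VGF was called by DESeq2, with the block and with the GC and length offsets.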

Other observations

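Ion channels and metabolic genes that the comparison above does not describe held a few further differences. Of 31 tested potassium channels, 3 (9.68%) were called for CIC::NUTM1 and 1 (3.23%) for CIC::DUX4 (median -0.02). Over all tested genes these shares were 4.97% and 1.64%, which give few calls in a list of this size. KCNMA1, the large-conductance calcium-activated channel, measured 5.64, 5.74 and 6.01 CPM with CIC::NUTM1, 1.95, 1.34 and 1.35 with CIC::DUX4 and 0.629, 0.498 and 0.842 in empty vector (log2 difference 1.89 ± 0.29, edgeR adjusted p = 8.17e-05). KCNJ2, an inward rectifier, differed by 1.52 ± 0.35 (edgeR adjusted p = 0.00744). Among 25 tested genes of cholesterol and fatty acid synthesis, 4 (16%) were called for CIC::NUTM1 and 1 (4%) for CIC::DUX4. The first number was 2 without CIC::NUTM1 replicate 1, CIC::NUTM1 replicate 3 or CIC::DUX4 replicate 2. SQLE, which catalyses an early step of sterol synthesis, differed by 0.42 ± 0.06 (edgeR adjusted p = 1.85e-05), while ELOVL6 lay on the side of CIC::DUX4.

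ATXN1, which binds CIC and serves as its corepressor, measured 75.8, 59.6 and 80.1 CPM with CIC::NUTM1, 50, 47.3 and 41.5 with CIC::DUX4 and 25.5, 25.1 and 27.6 in empty vector (log2 difference 0.63 ± 0.10, edgeR adjusted p = 0.000165). The 3 groups did not overlap. In the list of CIC corepressors and deacetylases, 4 of 21 tested (19%) were called, all 4 on the side of CIC::NUTM1 (median 0.09). Over all tested genes 4.97% were called on that side.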
